A study of Homo sapiens with 6 samples.

Results

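The translation initiation and elongation factor genes were examined in SKOV3 cells, a human ovarian cancer line, in which DNM3OS, a long non-coding RNA, had been knocked down by siRNA. Members were protein-coding genes of GENCODE release 44 whose symbols start with EIF1 to EIF6 (without the EIF2AK kinases) or EEF1A, together with EEF1B2, EEF1D, EEF1G, EEF2 and EEF2K. This rule found 64 of the 34834 genes that had a transcript in the files, and 53 of the 64 passed the low-count filter, among 11814 genes tested. EIF1AY, which lies on the Y chromosome, is counted among the members and no level of it is given. In the 3 knockdown samples, DNM3OS was targeted for 48 h with a 50 nM siRNA pool delivered with a lipid reagent, and the 3 controls received a nontargeting pool in the same way. The question was which transcripts differ when DNM3OS is lowered in this line. The files held 0 transcripts of DNM3OS, so the depth of the knockdown was not measured here. Nothing states that the replicates came from separate cultures, so p-values measure the spread between these samples, which may be technical.

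Initiation factors bring the small ribosomal subunit, the initiator tRNA and the capped mRNA together and find the start codon. eIF2 carries the initiator tRNA, eIF2B reloads eIF2 with GTP, eIF3 organises the small subunit, and eIF4F (the cap-binding eIF4E, the scaffold eIF4G and the helicase eIF4A) recruits the mRNA. Elongation factors then do the repeated work: eEF1A delivers aminoacyl-tRNAs, eEF1B (EEF1B2, EEF1D and EEF1G) reloads eEF1A with GTP, and eEF2 moves the ribosome along the mRNA. These genes are broadly expressed, since every growing cell needs them.

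Kallisto had assigned between 1610937 and 1995888 estimated counts to each sample, of which 93.6% to 95.2% fell on GENCODE genes. Knockdown replicate 1 stood apart from most other libraries: its chi-square statistic per degree of freedom over genes was between 11.3 and 13.0 against all others except control replicate 2 (5.504), while other pairs lay between 2.04 and 4.58. The 77 ribosomal protein genes together held 0.190%, 0.350% and 0.364% of the gene counts after knockdown and 0.510%, 0.286% and 0.491% in the controls. Of the markers of the line, KRT8 had between 1195 and 2566 counts and ERBB2 between 311 and 872, KRT18 and KRT19 had between 19 and 184 and were lowest in knockdown replicate 1, KRT7 had at most 12, EPCAM and PAX8 had between 16 and 46, and MUC16 was at 0 to 2. Of the markers of blood, endothelium and fibroblasts, PTPRC had between 91 and 148 counts, PECAM1, DCN and COL1A1 between 10 and 62, and CD3E, VWF and LUM at most 3. The libraries were stranded, and whether reads were counted on the opposite strand was not settled, so the overlap of members with exons on the opposite strand is given. Annotated transcripts without such overlap held 44.2% of the estimated counts in knockdown replicate 1. They held between 36.7% and 39.2% in the other libraries. KRT8 and KRT18 (means of 3786 and 69.8 TPM) overlap on opposite strands, so the split of reads between them is uncertain.

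Many mRNAs of elongation factors and ribosomal proteins begin with a C followed by further pyrimidines, the terminal oligopyrimidine (TOP) motif, through which mTORC1 signalling is known to control their translation. RefSeq gives a promoter for 52 of the 64 members (GRCh38.p14). In 13 of these (25.0%), at any of the gene's annotated starts, the start base was a C that opened a sense-strand run of at least 5 bases of C or T. The same run was found at 1404 of the 27305 genes with a promoter (5.14%). The members below are shown because they include the elongation factors with the largest differences and, of the members without the run, EEF1G and the abundant EIF1AD and EIF4E. Each sequence holds 35 bases before the start and 20 from it, written 5′ to 3′, and capitals mark the run.
EEF1A1 (chr6:73521013-73521067, minus strand): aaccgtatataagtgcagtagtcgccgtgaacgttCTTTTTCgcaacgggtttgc
EEF2 (chr19:3985444-3985498, minus strand): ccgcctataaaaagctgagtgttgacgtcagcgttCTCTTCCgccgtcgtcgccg
EEF1B2 (chr2:206159860-206159914, plus strand): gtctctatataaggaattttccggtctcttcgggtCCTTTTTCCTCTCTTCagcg
EIF4B (chr12:53006421-53006475, plus strand): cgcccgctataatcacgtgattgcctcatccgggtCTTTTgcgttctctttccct
EIF2S3 (chrX:24054921-24054975, plus strand): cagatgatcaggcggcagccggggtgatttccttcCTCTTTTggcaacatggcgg
EEF1G (chr11:62573872-62573926, minus strand): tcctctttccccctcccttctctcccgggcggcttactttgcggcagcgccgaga
EIF1AD (chr11:66002138-66002192, minus strand): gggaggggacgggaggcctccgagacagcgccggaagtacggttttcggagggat
EIF4E (chr4:98929114-98929168, minus strand): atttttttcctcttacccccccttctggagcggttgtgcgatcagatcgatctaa

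In EEF1A1, EEF2, EEF1B2, EIF4B and EIF2S3 the run began at the start base, whereas EEF1G, EIF1AD and EIF4E had none there. A match or its absence describes these letters only. The 12 tested members with the run had a median log2 fold change of -0.47, with 10 of 12 below 0. The 33 tested members whose promoter lacked it had a median of -0.20, with 23 of 33 below 0. Of all tested genes, 49.4% were below 0. These medians were not recomputed with libraries left out, and whether the run bears on the fold change was not tested.

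On the length-normalised TPM scale, the median member had a mean of 32.7 TPM over the 6 samples. Of the 63 members given a level, 18 lay below 10 TPM and 6 reached 100 TPM. EEF1A1 was highest (390.0 TPM, rank 157 among all genes), followed by EIF1AD, a nuclear protein related to eIF1A (354 TPM, rank 180), EIF4ENIF1, which carries eIF4E into the nucleus (163 TPM), EEF1D (149.7 TPM), EIF5 (129.6 TPM) and EIF4E (123 TPM). EEF1G, an eEF1B subunit, had a mean of 7.97 TPM, far below EEF1A1 on the same scale. The median ribosomal protein gene had 101 TPM, with a range from 2.29 to 333 TPM. Since counting on the opposite strand was not settled, these levels and ranks may not give the order of the RNAs in the cells.

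**Figure D1:**
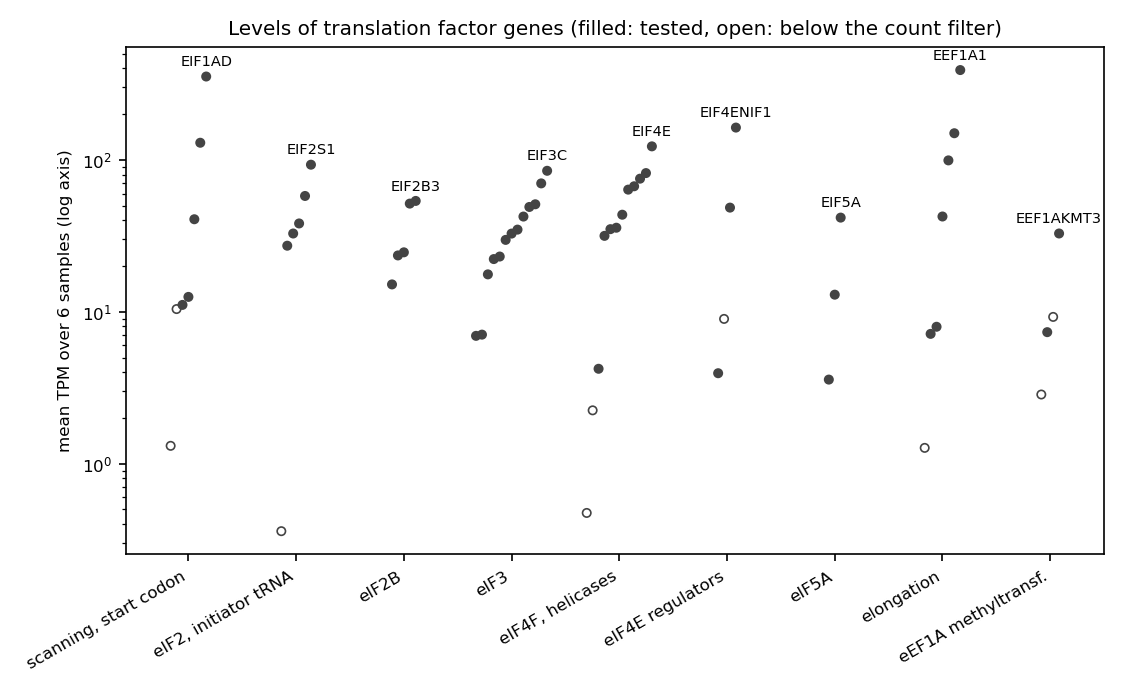
Mean TPM over the 6 samples (log axis) of each member with a level above 0 in 1 or more samples, grouped by role, with filled points for genes tested and open points for genes below the count filter. EEF1A1 (390.0 TPM) and EIF1AD (354 TPM) were the highest, and the members left out by the filter lay at the low end of most groups.

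No member passed the test in either direction. With edgeR's exact test and Benjamini-Hochberg adjustment over all genes, 0 of the 53 tested members were lower and 0 were higher at an adjusted p below 0.05, beside 0.00846% and 0.0% of all tested genes, and every member had an adjusted p of 1. At an unadjusted exact test p below 0.05, 4 members were lower (EEF1B2, EEF1G, EIF2S2 and EIF4G2, 7.55% of members beside 1.91% of all genes) and 0 were higher (beside 1.01%). The unadjusted count of lower members was 3 with edgeR's quasi-likelihood test and 3 with DESeq2. It was 4 with RLE scaling, 2 with transcripts outside the annotation kept and 1 on length-scaled counts. For these 3 settings the share of all genes, in both directions, was 2.96%, 2.73% and 3.69%. It was 0 without replicate 1 of either group, 1 without control replicate 3, 9 when knockdown replicate 3 was left out and 13 when control replicate 2 was left out. Without knockdown replicate 1, 1 member was higher. The share of all genes at that p, in both directions, was 2.92% with the exact test on all libraries. It was 2.93% with the quasi-likelihood test and 1.63% with DESeq2. Without knockdown replicate 1 it was 2.84%, without control replicate 1 1.12% and without control replicate 3 1.45%. The share was 4.91% when knockdown replicate 3 was left out and 7.15% when control replicate 2 was left out. On simulated counts with 200 genes changed by 2 on the log2 scale, the exact test recovered 195 among 11240 genes and made 33 other calls. The changed genes were picked among those with higher mean counts, and each gene was drawn independently. The simulation thus does not show how often smaller changes, or changes in genes with few counts, would be found.

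As a group, more members had a log2 fold change below 0 than above it. The log2 fold change was below 0 for 39 of the 53 tested members (73.6%) and for 49.4% of all tested genes. Its median over members was -0.25 (range -2.16 to 0.31), and its median over all genes was 0.0042. The member median was -0.085 without knockdown replicate 1 and -0.42 when knockdown replicate 3 was left out, and it was -0.0089 when both libraries of replicate 1 were left out. With the ribosomal protein share as a covariate, a fit added after seeing the data, it was 0.12 and 19 of the 53 were below 0. That share ranked the libraries in the same order as the summed CPM of the members. The covariate fits, here and below, thus cannot separate a knockdown difference in the members from a difference in that share. In cells measured in bulk, fewer cells that express a gene and less RNA per cell cannot be told apart.

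The summed level of the members overlapped between the groups. Levels of single samples are in CPM, counts divided by a common TMM-scaled library size. Summed over the members, they were 2160.0, 3413 and 3644 CPM after knockdown and 4264, 2820.0 and 3943 in the controls (3072 ± 799 against 3676 ± 758, SD, n = 3). Knockdown replicate 1 was lowest, control replicate 2 lay below knockdown replicates 2 and 3, and the other controls were highest. Of the tested members, 15 (28.3%) had their lowest CPM in knockdown replicate 1 and their highest in control replicate 1, beside 10.9% of all tested genes. The ribosomal protein share of counts was lowest and highest in the same libraries, and it ranked all libraries in the order of the members' summed CPM. Its part in these results was not tested, since the covariate fit above cannot separate the share from the members. Retained-intron transcripts held 19.5% of the members' counts in knockdown replicate 1 and between 12.6% and 14.9% in the other libraries.

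**Figure D2:**
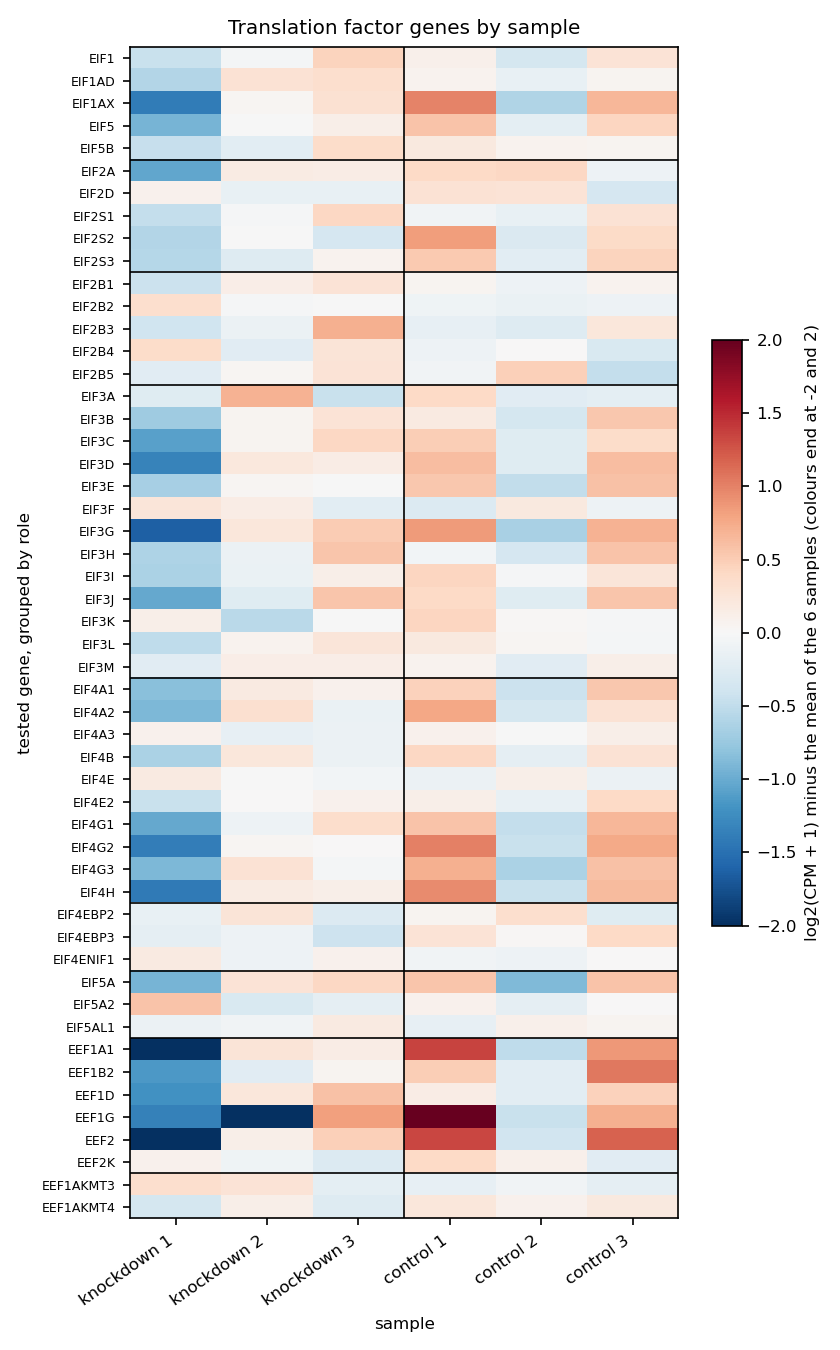
Log2(CPM + 1) of each tested member in each sample, minus the gene's mean over the 6 samples, with members in rows grouped by role and samples in columns (blue lower, red higher). Most rows are blue in knockdown replicate 1 and red in control replicates 1 and 3. The median row of control replicate 2 lies between knockdown replicate 1 and the other controls.

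The elongation factors had the lowest median fold change of the role groups. Gene positions here and below are on GRCh38. All 6 tested members of this group were below 0, with a median log2 fold change of -0.99 (range -2.16 to -0.13), beside 0.0042 over all genes. The median was -0.56 without knockdown replicate 1, -0.21 without both libraries of replicate 1, and -0.015 with the ribosomal protein share as a covariate. EEF1A1, EEF1G and EEF2 were at least 2-fold lower, as were 1.48% of all tested genes, and none of the 3 passed the test.

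EEF1A1 (ENSG00000156508.19, chr6:73489308-73525587), which brings aminoacyl-tRNAs to the ribosome and opens with the TOP run shown above, had 66.98, 357 and 329.8 CPM after knockdown and 763, 209.5 and 544 in the controls (log2 fold change -1.01, SE 0.96, exact test p = 0.0809, permutation p = 0.4). Knockdown replicate 1 was lowest and control replicate 1 highest, control replicate 2 lay below knockdown replicates 2 and 3, and the groups overlapped (251 ± 160.0 against 505 ± 279 CPM, SD, n = 3). The log2 fold change of EEF1A1 ran from -1.37 to -0.54 when single libraries were left out. EEF1A1 has many processed pseudogenes: 49 of them held 278, 115 and 86 counts after knockdown and 94, 144 and 109 in the controls, beside 144, 528 and 470 counts after knockdown and 1340, 320 and 924 in the controls on EEF1A1 itself. The library with the fewest EEF1A1 counts thus had the most pseudogene counts, and reads shared by near-identical copies cannot be assigned with certainty. Over all samples the pseudogenes held 18.1% of the counts of EEF1A1 and its pseudogenes. EEF1A2, the paralog of neurons and muscle, was below the filter with 0, 0 and 5 counts after knockdown and 4, 1 and 4 in the controls.

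EEF2 (ENSG00000167658.16, chr19:3976056-3985463), the translocase, had 10.2, 79.02 and 102 CPM after knockdown and 186, 55.6 and 168 in the controls (log2 fold change -1.10, SE 1.15, exact test p = 0.0975, permutation p = 0.3). As for EEF1A1, knockdown replicate 1 was lowest, control replicate 1 was highest and control replicate 2 lay below the other knockdown samples (63.9 ± 47.9 against 136 ± 70.7 CPM, SD, n = 3). EEF2K, the kinase that inhibits eEF2, had 38.1, 33.8 and 29.5 CPM after knockdown and 47.9, 38.6 and 30.6 in the controls (log2 fold change -0.20, SE 0.21, exact test p = 0.449, permutation p = 0.4), with overlapping groups.

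Of the eEF1B subunits, EEF1B2 (ENSG00000114942.14, chr2:206159585-206162928), the exchange factor itself, had 7.44, 14.9 and 18.2 CPM after knockdown and 25.1, 15.1 and 37.6 in the controls (log2 fold change -0.97, SE 0.51, exact test p = 0.0323, permutation p = 0.2). The groups overlapped in control replicate 2. Pseudogenes of EEF1B2 (8) held 68, 20 and 16 counts after knockdown and 18, 25 and 26 in the controls, or 47.0% of the counts on gene and pseudogenes together. The highest pseudogene count was in knockdown replicate 1, where EEF1B2 itself was lowest. EEF1G, a structural subunit, had 2, 0 and 11 counts after knockdown and 50, 4 and 12 in the controls (log2 fold change -2.16, SE 1.22, exact test p = 0.0447, permutation p = 0.3). It rested on few counts: without control replicate 1 its log2 fold change was -0.79, and without knockdown replicate 3 it was -4.42. Its 8 pseudogenes held 26, 15 and 7 counts after knockdown and 9, 11 and 7 in the controls (48.7% of the counts of gene and pseudogenes). The assignment of reads to EEF1B2 and EEF1G is uncertain too. EEF1D, another exchange subunit, had 24.2, 66.9 and 86.3 CPM after knockdown and 63.8, 49.1 and 79.4 in the controls (log2 fold change -0.13, SE 0.58, exact test p = 0.77, permutation p = 0.9). Its fold change turned above 0 without knockdown replicate 1 (0.26) or control replicate 3 (0.042). Exons on the opposite strand covered 34.0% of the exonic bases of EEF1D.

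Summed over EEF1A1, EEF1B2, EEF1G and EEF2, the knockdown samples had 85.6, 450.5 and 458 CPM and the controls had 1003, 283 and 756 (331 ± 213 against 681 ± 366, SD, n = 3). Control replicate 2 lay between knockdown replicate 1 and the other knockdown samples. These 4 genes were summed after their values were seen.

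**Figure D3:**
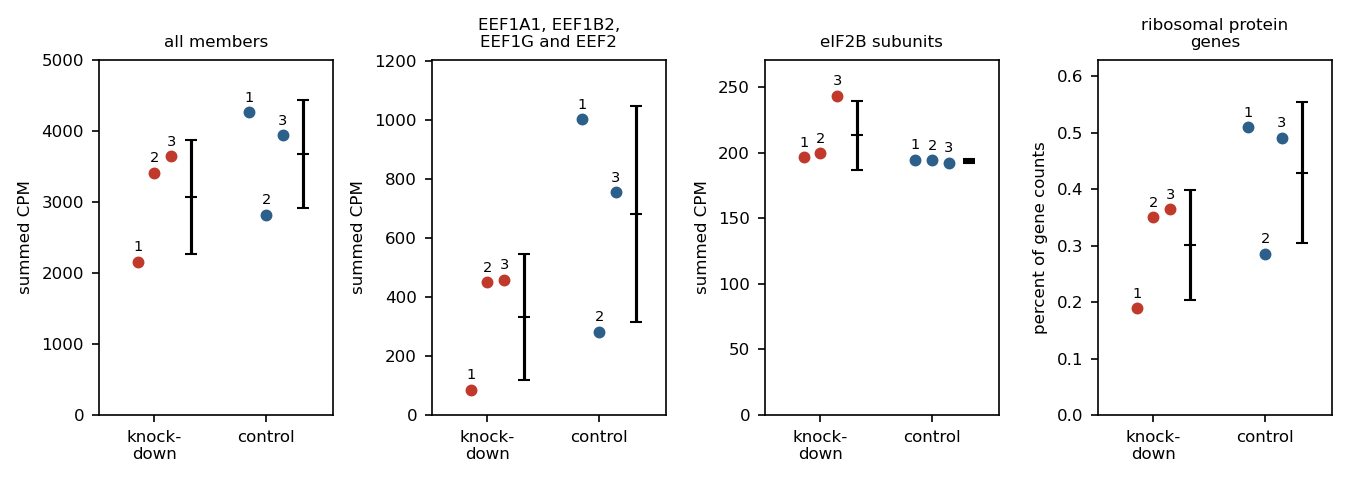
Summed CPM of all members, of 4 elongation factor genes and of the eIF2B subunits, and the percent of gene counts on ribosomal protein genes, per sample (points, numbered by replicate), with the mean and SD of each group (bars). The groups overlap for all members, the 4 elongation factors and the ribosomal protein genes, while the eIF2B sums lie between 192 and 244 CPM with knockdown replicate 3 highest.

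Among the genes of scanning and start codon selection, 4 of 6 tested members were below 0, with a median log2 fold change of -0.10. Without knockdown replicate 1 the median was 0.023, with 2 of 6 below 0, and it was -0.37 without knockdown replicate 3 and -0.185 without control replicate 2. EIF1AD (ENSG00000175376.9, chr11:65996545-66002176) had 423, 774 and 799.9 CPM after knockdown and 664, 574 and 658 in the controls (log2 fold change 0.07, SE 0.31, exact test p = 0.792, permutation p = 1). Knockdown replicate 1 was lowest and the other knockdown samples included the highest, so the controls lay inside the knockdown range. Its fold change turned below 0 without knockdown replicate 2 (-0.053) or 3 (-0.081). A single protein-coding transcript held 97.6% of its counts, and BANF1 lies 51 bases away on the opposite strand. EIF1AX, which helps the small subunit to scan, had 5.58, 16.9 and 20.4 CPM after knockdown and 33.6, 10.5 and 26.5 in the controls (log2 fold change -0.75, SE 0.71, exact test p = 0.177, permutation p = 0.4). Knockdown replicate 1 and control replicate 2 were the lowest for EIF1AX, and the groups overlapped. Pseudogenes (2) held 46.7% of the counts on EIF1AX and its copies, so its counts are uncertain. EIF5, which makes eIF2 hydrolyse its GTP at the start codon, had 33.02, 63.5 and 69.5 CPM after knockdown and 95.1, 55.6 and 86.5 in the controls (log2 fold change -0.53, SE 0.40, exact test p = 0.11, permutation p = 0.3), again with overlapping groups. On length-scaled counts the log2 fold change was -0.20 for EIF1AX and -0.37 for EIF5. EIF1B and EIF6 were below the filter, with at most 2 and 15 counts.

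All 5 tested genes of the eIF2 group were below 0, with a median log2 fold change of -0.44, which was -0.26 without knockdown replicate 1 (4 of 5 below 0) and -0.14 without both libraries of replicate 1. EIF2S1, the alpha subunit on which stress kinases act, was the most abundant (92.9 TPM) and had 140.0, 191 and 261 CPM after knockdown and 186, 176 and 237 in the controls (log2 fold change -0.02, SE 0.29, exact test p = 0.949, permutation p = 1). The groups overlapped fully, and its fold change turned above 0 without knockdown replicate 1 (0.19) or control replicate 3 (0.11). EIF2S2 (ENSG00000125977.7, chr20:34088309-34112243), the beta subunit, had 30.2, 45.2 and 35.8 CPM after knockdown and 82.02, 37.3 and 60 in the controls (log2 fold change -0.70, SE 0.36, exact test p = 0.03, permutation p = 0.2). Control replicate 2 lay inside the knockdown range and the other controls above it. Its 7 pseudogenes held 53, 12 and 24 counts after knockdown and 20, 28 and 28 in the controls (25.3% of the counts of gene and pseudogenes), so its counts are uncertain. EIF2S3, the gamma subunit, which binds GTP and opens with the run shown above, had 29.8, 37.1 and 47.01 CPM after knockdown and 64.4, 38.6 and 61.2 in the controls (log2 fold change -0.54, SE 0.29, exact test p = 0.066, permutation p = 0.2). Here control replicate 2 was below knockdown replicate 3, and the groups overlapped. On the TPM scale EIF2S3 lay between 31.4 and 34.05 in all samples. On length-scaled counts the log2 fold change was -0.072 for EIF2S3 and -0.71 for EIF2S2. EIF2S3B, a copy of EIF2S3, was below the filter with at most 2 counts.

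The eIF2B subunits, which form the exchange factor of eIF2, were the only role group with 0 tested members below 0: all 5 lay between 0.0045 and 0.29, with a median log2 fold change of 0.19, whereas 1 of 5 was below 0 with RLE scaling and 3 of 5 on length-scaled counts. The median was -0.12 without knockdown replicate 3 (3 of 5 below 0), 0.30 when knockdown replicate 2 was left out, and -0.015 on length-scaled counts. Without transcripts that overlap opposite-strand exons, only 2 of the 5 were still tested. Of these, 1 was below 0, and the median was 0.050. EIF2B2 (ENSG00000119718.11, chr14:75002921-75012366) had 52.1, 40.5 and 40.7 CPM after knockdown and 38.7, 37.3 and 38.2 in the controls (log2 fold change 0.23, SE 0.12, exact test p = 0.336, permutation p = 0.1). All knockdown samples lay above all controls (44.4 ± 6.63 against 38.1 ± 0.718 CPM, SD, n = 3), and EIF2B2 was the only member for which this held (1.89% of tested members, beside 4.42% of all genes). On length-scaled counts its log2 fold change was -0.16. Exons of 2 opposite-strand genes covered 23.6% of its exonic bases. EIF2B4 had 58.6, 38.5 and 54.7 CPM after knockdown and 42.1, 45.8 and 36.5 in the controls (log2 fold change 0.29, SE 0.21, exact test p = 0.26, permutation p = 0.3), and a retained-intron transcript held 90.6% of its counts. EIF2B3 had 15.3, 18.9 and 34.4 CPM after knockdown and 18.2, 17.02 and 24.1 in the controls (log2 fold change 0.19, SE 0.36, exact test p = 0.602, permutation p = 0.8), with 91.5% of its counts on a transcript that has no defined coding sequence, and without knockdown replicate 3 its fold change was -0.22. For EIF2B3 and EIF2B4 the groups overlapped. Summed over the 5 subunits, CPM was 197, 199.9 and 244 after knockdown and 195, 194 and 192 in the controls (213 ± 26.1 against 194 ± 1.29, SD, n = 3). Every knockdown sum lay above every control sum, but the lowest knockdown sum (196.8 CPM) was close to the highest control sum (194.8 CPM). Only knockdown replicate 3 was well above the rest. Of the sums given, only that over all members had been planned.

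Of the eIF3 subunits, 10 of 13 tested were below 0, with a median log2 fold change of -0.27. This median became 0.0061 without knockdown replicate 1, -0.50 when knockdown replicate 3 was left out, and -0.45 without control replicate 2. EIF3C, a core subunit, was the most abundant (84.7 TPM) and had 33.02, 73.6 and 94.7 CPM after knockdown and 100.3, 60.2 and 92.4 in the controls (log2 fold change -0.34, SE 0.50, exact test p = 0.37, permutation p = 0.6). Its near-identical copy EIF3CL was given 0 counts in all samples, so reads of this pair cannot be assigned with certainty. EIF3D, the subunit that can itself bind the cap, had 5.58, 18.2 and 17.5 CPM after knockdown and 24.5, 13.1 and 24.7 in the controls (log2 fold change -0.62, SE 0.57, exact test p = 0.203, permutation p = 0.3). Both genes were lowest in knockdown replicate 1, and the groups overlapped. The eIF3 sum was 257, 417 and 457 CPM after knockdown and 498, 343 and 479 in the controls (377 ± 106 against 439.9 ± 84.4, SD, n = 3). Pseudogenes held 86.9% of the counts on EIF3F and its copies and 44.4% of those on EIF3E and its copies. Counts of EIF3F and EIF3E, which enter the median and the sum, are thus uncertain too.

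Among the eIF4F subunits and their cofactors, 9 of 10 tested genes were below 0, with a median log2 fold change of -0.45 (-0.19 and -0.27 without replicate 1 of the knockdown and of the control, -0.69 without control replicate 2). EIF4G2 (ENSG00000110321.19, chr11:10797050-10808940), a scaffold that lacks the eIF4E site, had 20, 55.4 and 54.03 CPM after knockdown and 109, 39.3 and 91.2 in the controls (log2 fold change -0.90, SE 0.65, exact test p = 0.0425, permutation p = 0.3). Knockdown replicate 1 and control replicate 2 were lowest, and the groups overlapped. EIF4H, a helicase cofactor, had 14.9, 46.6 and 44.9 CPM after knockdown and 80.3, 30.1 and 64.7 in the controls (log2 fold change -0.73, SE 0.66, exact test p = 0.113, permutation p = 0.4). EIF4G1, the main scaffold, had 28.8, 55.4 and 76.5 CPM after knockdown and 88.9, 42.5 and 94.7 in the controls (log2 fold change -0.50, SE 0.54, exact test p = 0.208, permutation p = 0.5). EIF4B, another helicase cofactor, had 73.96, 134 and 105 CPM after knockdown and 153, 102 and 141 in the controls (log2 fold change -0.34, SE 0.30, exact test p = 0.236, permutation p = 0.3). In all 3 of these genes knockdown replicate 1 was lowest, and the other knockdown samples lay within the range of the controls. On length-scaled counts the log2 fold change was -0.37 for EIF4G2, -0.87 for EIF4H, -0.40 for EIF4G1 and -0.48 for EIF4B. The helicases EIF4A1 and EIF4A2 share much of their sequence, so the split of reads between them is uncertain. EIF4A1 had 26.5, 54.7 and 51.2 CPM after knockdown and 66.6, 35.4 and 70 in the controls (log2 fold change -0.39, SE 0.45, exact test p = 0.28, permutation p = 0.5). EIF4A2 had 14.9, 35.8 and 25.96 CPM after knockdown and 49.6, 22.3 and 35.3 in the controls (log2 fold change -0.50, SE 0.48, exact test p = 0.206, permutation p = 0.5). Both were lowest in knockdown replicate 1, and the groups overlapped. The exception was EIF4E, which binds the cap. EIF4E had 228, 199 and 193 CPM after knockdown and 185, 218 and 185 in the controls (log2 fold change 0.08, SE 0.11, exact test p = 0.721, permutation p = 0.5), and knockdown replicate 1 was here the highest sample. EIF4E1B and EIF4E3 were below the filter, with at most 1 and 4 counts.

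Of the eIF4E regulators, EIF4EBP3 (ENSG00000243056.2, chr5:140547662-140549576), which binds eIF4E and blocks eIF4G, had 15.8, 16.9 and 13.3 CPM after knockdown and 22.2, 18.3 and 24.1 in the controls (15.3 ± 1.82 against 21.6 ± 2.95 CPM, SD, n = 3). All knockdown samples lay below all controls (log2 fold change -0.49, SE 0.15, exact test p = 0.109, permutation p = 0.1), and the permutation p is the smallest that 20 assignments of 3 against 3 can give. EIF4EBP3 was the only member with this order (1.89% of tested members, beside 3.56% of all genes). Its log2 fold change lay between -0.58 and -0.40 when single libraries were left out. EIF4EBP3 shares exons with the readthrough gene ANKHD1-EIF4EBP3 on the same strand, so its counts are uncertain, and its gene body overlaps SRA1 on the opposite strand. EIF4EBP1, the best known of these inhibitors, was below the filter with 3, 5 and 7 counts after knockdown and 15, 6 and 16 in the controls. EIF4ENIF1 had 114, 94.5 and 107 CPM after knockdown and 95.7, 93.6 and 102 in the controls (log2 fold change 0.12, SE 0.09, exact test p = 0.566, permutation p = 0.3), with overlapping groups and 48.3% of its counts on a retained-intron transcript.

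For eIF5A, which helps ribosomes through difficult peptide bonds, EIF5A had 12.1, 29.04 and 32.3 CPM after knockdown and 35.3, 12.4 and 35.9 in the controls (log2 fold change -0.21, SE 0.64, exact test p = 0.681, permutation p = 0.5). Knockdown replicate 1 and control replicate 2 were the low samples, and the fold change was 0.14 without knockdown replicate 1. EIF5AL1, a near-identical copy whose reads may be shared with EIF5A, had 31.2, 32.4 and 38.6 CPM after knockdown and 30.2, 36.7 and 35.3 in the controls (log2 fold change -0.0046, SE 0.12, exact test p = 1, permutation p = 1) and did not follow that order. Of the 5 genes of the eEF1A methyltransferases, which methylate lysines of eEF1A, 2 were tested, and EEF1AKMT1 and EEF1AKMT2 had at most 5 and 17 counts. EEF1AKMT3 had 53.96, 52 and 37.2 CPM after knockdown and 38.2, 40.6 and 37.6 in the controls (log2 fold change 0.31, SE 0.17, exact test p = 0.225, permutation p = 0.4), with knockdown replicate 3 below all controls. EEF1AKMT4 had 6.51, 9.46 and 7.02 CPM after knockdown and 10.2, 9.17 and 10 in the controls (log2 fold change -0.37, SE 0.15, exact test p = 0.374, permutation p = 0.2), and shares exons with a readthrough gene, itself a member, that was given 0 counts.

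**Figure D4:**
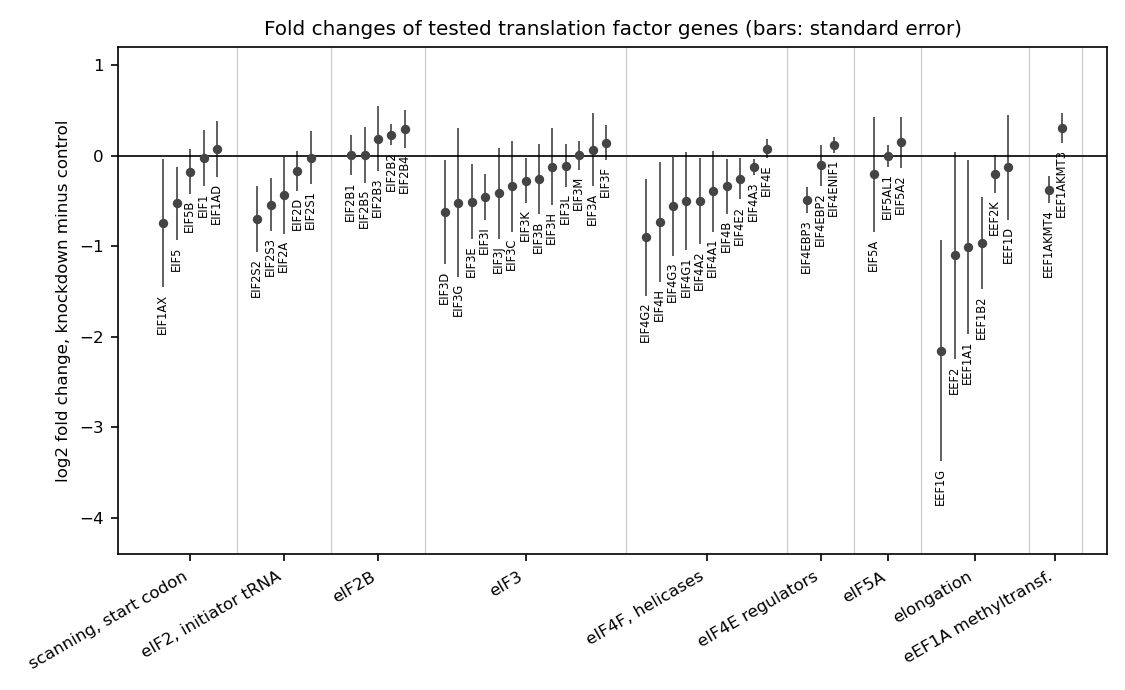
Log2 fold change (knockdown minus control) of each tested member with its standard error (bars), grouped by role. The elongation factors reach from -2.16 to -0.13, the eIF2B subunits lie between 0.0045 and 0.29, and no member passed the test.

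Other genes of translational control were read from a list of 56 genes outside the rule, covering eIF2 kinases and the integrated stress response, mTORC1 and MNK signalling, poly(A)-binding proteins and further partners. Of these, 47 were tested, and 0 passed the test in either direction. At an unadjusted p below 0.05, 1 was lower (2.13%, beside 1.91% of all genes) and 0 were higher. The log2 fold change was below 0 for 32 of the 47 (68.1%, beside 49.4% of all genes), with a median of -0.12. This median was -0.030 without knockdown replicate 1 (26 of 48 below 0) and -0.063 without control replicate 1, -0.018 when both were left out, and 0.015 with the ribosomal protein share as a covariate. PPP1CA, a catalytic subunit of the phosphatase that reverses eIF2 phosphorylation, had 9.77, 16.9 and 12.6 CPM after knockdown and 23.9, 20.3 and 18.8 in the controls (log2 fold change -0.71, SE 0.23, exact test p = 0.0391, permutation p = 0.1), with all knockdown samples below all controls. MTOR, the kinase of mTORC1, had 3.26, 10.8 and 15.4 CPM after knockdown and 22.2, 9.82 and 21.8 in the controls (log2 fold change -0.91, SE 0.67, exact test p = 0.11, permutation p = 0.3). LARP1, which binds TOP mRNAs, had 15.8, 37.1 and 33.7 CPM after knockdown and 40.4, 36.01 and 47.6 in the controls (log2 fold change -0.54, SE 0.39, exact test p = 0.111, permutation p = 0.2). In both of these the groups overlapped, and knockdown replicate 1 was lowest. DPH1, an enzyme of the diphthamide on eEF2, was the only other listed gene whose knockdown samples all lay below the controls (-0.28 on the log2 scale, exact test p = 0.255). These 2 genes were 4.26% of those tested, beside 3.56% of all genes.

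Members were also compared by their overlap with genes on the opposite strand. Exons of opposite-strand genes covered 0.855% to 34.0% of the exonic bases of 28 members, whose median level was 41.2 TPM and whose median log2 fold change, over 27 tested, was -0.17. The 36 members with no such overlap had a median level of 12.8 TPM and, over 26 tested, a median log2 fold change of -0.36. When transcripts that overlap opposite-strand exons were left out, 43 members were tested and the median was -0.32. Of 63 members, 23 have a gene body that overlaps a coding gene on the other strand.

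**Figure D5:**
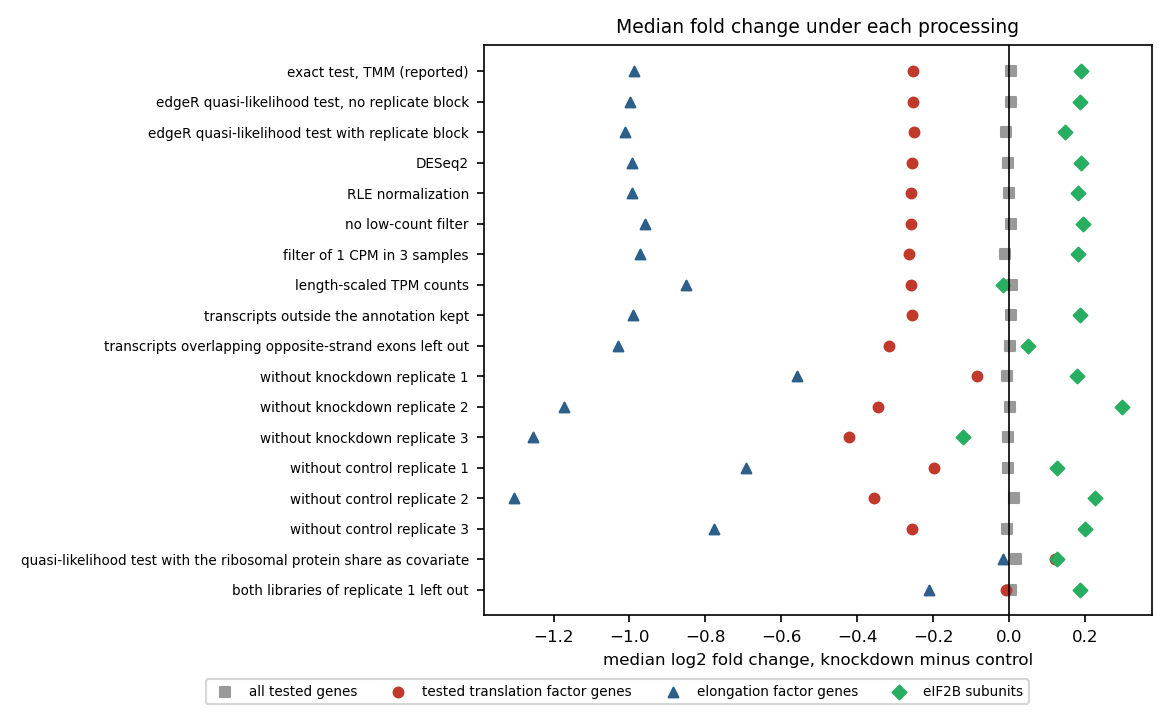
Median log2 fold change (knockdown minus control) of all tested genes, of the tested members, of the elongation factor genes and of the eIF2B subunits under each processing. The member median stays near -0.25 when the test, scaling or filter is changed, moves to -0.085 without knockdown replicate 1, and is 0.12 with the ribosomal protein share as a covariate.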

How the data were processed

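RNA was sequenced from SKOV3 cells, with 3 DNM3OS knockdown samples and 3 nontargeting controls, grouped by their labels. The authors made stranded, ribosomal RNA-depleted total RNA libraries and ran kallisto 0.43.0 on paired reads against Ensembl transcripts of GRCh38. For each transcript they deposited an expected count (kallisto's estimated count, not normalized) and a TPM, normalized by length and depth. A strand option is not given in the sources used here. Of 173259 transcripts, 155518 matched GENCODE 44 by identifier and the other 17741 were left out. Values of a gene's transcripts were added up, the counts were then rounded to whole numbers, and 3 counts corresponded to between 1.61 and 1.97 unscaled CPM. This floor covers counting error only.

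Genes were filtered with filterByExpr (minimum count 10), scaled by TMM and compared with the exact test of edgeR 4.0.16 (R 4.3.3). The p-values were adjusted over 11814 genes by the Benjamini-Hochberg method. The study's methods name gene-level summaries by tximport, edgeR and an exact test, and the filter, the TMM scaling and the plain sums were chosen here. Standard errors are those of the difference between group means of log2 CPM (prior count 2). Single genes also had a two-sided exact permutation test over 20 assignments, whose smallest p is 0.1. The alternatives included the quasi-likelihood test of edgeR, also with a replicate block, DESeq2 1.42.0, RLE scaling, other filters, length-scaled counts, other transcript sets and leaving out libraries. The fit was tested on simulated data. The labels do not say that same-numbered samples were paired, and the main fit treated samples as unpaired. Deviations from the group means correlated at -0.40, -0.34 and 0.23 between same-numbered samples. With 3 samples per group, these values cannot show whether the samples were paired.

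Members, role groups and gene lists were chosen with earlier results of these data known. Named were members with an adjusted p below 0.05, members whose groups did not overlap, the most abundant member and the member with the largest fold change of each role group, near-identical pairs, and the 3 listed pathway genes with the smallest p. EEF1B2, EEF2, EEF1D, EEF2K, EIF2S3, EIF4B, EIF4G1, EIF4H, EIF5 and DPH1 were named after their values were seen. Promoter sequences are from RefSeq (GRCh38.p14). A listed marker gene is not reported here.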

Additional observations from a re-analysis of the deposited data

How the results depend on the processing

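The count of members called was 0 under every alternative run. Over all genes, 1 was called by the exact test, 0 by the quasi-likelihood test with or without the replicate block, by DESeq2, without transcripts that overlap opposite-strand exons and with the ribosomal protein share as covariate, 2 without the low-count filter or with a filter of 1 CPM in 3 samples, 6 on length-scaled counts, 5 with transcripts outside the annotation, 3 without both libraries of replicate 1, and 1 to 3 when a library was left out. The member median ranged from -0.42 to -0.085 when a library was left out, and was 0.12 with the covariate. The covariate and the loss of both replicate 1 libraries were chosen after seeing the data. The covariate ranks the libraries as the members' summed CPM does, so values from that fit cannot separate the 2 measures.

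Of 505 fold changes of the 30 named members under alternatives, 463 kept their direction and 42 reversed, and the cause was not tested. With the covariate, values were EIF1AX 0.36, EIF5 0.012, EIF2S1 0.25, EIF3C 0.25, EIF3D 0.15, EIF4A1 0.26, EIF4A2 0.17, EIF4B 0.050, EIF4E -0.074, EIF4G1 0.26, EIF4G2 0.031, EIF4H 0.19, EIF5A 0.80, EEF1A1 0.13, EEF1D 0.44 and EEF2 0.14. Without both replicate 1 libraries they were EIF1AX 0.0043, EIF2S1 0.13, EIF3C 0.14, EIF4A1 0.0086, EIF4A2 0.10, EIF4E -0.035, EIF5A 0.34 and EEF1D 0.25. On length-scaled counts EIF2B2 was -0.16 and EIF4E -0.036, without opposite-strand overlaps EIF5A was 0.14, and without the filter EIF5AL1 was 0.0001. Leaving out single libraries gave ranges across 0 for EEF1D (-0.51 to 0.26), EIF1AD (-0.081 to 0.33), EIF2B3 (-0.22 to 0.43), EIF2S1 (-0.27 to 0.19), EIF3C (-0.68 to 0.0061), EIF5A (-0.56 to 0.14) and EIF5AL1 (-0.096 to 0.073).

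With the replicate block in the quasi-likelihood test, 1 member was lower at an unadjusted p below 0.05, beside 1.35% of all genes in both directions. The member median was then -0.25, and EIF5AL1 was 0.0006 on the log2 scale. The block turned the direction of no other named member.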
